A study of Mus musculus with 12 samples.

Results

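The genes described here encode the replication licensing machinery and its clamp in mouse embryos. They are the 10 genes Mcm2, Mcm3, Mcm4, Mcm5, Mcm6, Mcm7, Cdc6, Cdt1, Gmnn and Pcna, taken by name from a table of 36255 genes, and all 10 passed the filter on low counts. Polyadenylated RNA was sequenced in 11 libraries whose labels give embryo as the source, although the series text and the growth medium speak of embryonic stem cells and embryoid bodies. The series concerns Skp1a, an adaptor subunit of SCF ubiquitin ligases. The groups were wt at 9.0 dpc (days post coitum), wt at 9.5 dpc, wt PI at 9.5 dpc, Skp1acont at 9.5 dpc, Skp1aKO at 9.5 dpc and Skp1acont PI at 9.5 dpc. Each group had 2 libraries, lot 1 and lot 2, except Skp1acont PI, of which only lot 1 was analysed here. The labels do not spell out "cont" or "PI", do not name the allele, promoter or Cre behind the Skp1a labels, and do not say whether lots are separate embryos. P-values therefore measure the spread between libraries, which may be technical.

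In late mitosis and G1, the origin recognition complex, Cdc6 and Cdt1 load the ring of Mcm2 to Mcm7 onto DNA as the dormant replicative helicase. Geminin, the product of Gmnn, binds Cdt1 and blocks renewed loading once S phase has begun, and Pcna is the sliding clamp of the replicative polymerases. Cdt1 protein is degraded through the SCF ligase with Skp2, which needs Skp1, and through the Cul4 ligase with Dtl, which acts on Cdt1 bound to Pcna. Most of these genes are transcribed in late G1 under E2F factors, and rapidly dividing embryonic tissue is known for high levels of all of them. None of the libraries reports protein.

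The E2F-type letters TTTCCCGC, TTTCGCGC, TTTGCCGC and TTTGGCGC were searched on both strands of promoter windows from 250 bases before to 50 bases after each start site. The windows came from RefSeq, build GRCm38.p6, which held 9 windows for 8 of the 10 genes, without Mcm4 and Gmnn. Matches overlapped each other in Mcm5 and Mcm6. Of these 8 genes, 6 held at least 1 match, against 2.26% of all 32851 promoter windows of this length. The CCAAT letters, another element of cell cycle promoters, were in 6 of the 8 genes and in 37.4% of all windows. The CHR letters TTTGAA, an element known from genes of late cell cycle, were in 1 of the 8 genes and in 17.9% of all windows. A match describes letters and not a bound site. The Mcm and Cdc6 sequences with matches before the start site follow from their first base 250 bases upstream, 5′ to 3′, with the E2F-type letters in capitals, to show where in each window those letters lie.
Mcm5, GRCm38.p6 chr8:75109259-75109508, plus strand: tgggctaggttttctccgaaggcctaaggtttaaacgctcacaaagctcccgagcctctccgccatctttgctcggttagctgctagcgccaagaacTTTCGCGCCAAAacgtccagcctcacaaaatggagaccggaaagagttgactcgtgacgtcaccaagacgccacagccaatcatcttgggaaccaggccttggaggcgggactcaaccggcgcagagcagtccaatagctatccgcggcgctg
Mcm6, GRCm38.p6 chr1:128359706-128359955, minus strand: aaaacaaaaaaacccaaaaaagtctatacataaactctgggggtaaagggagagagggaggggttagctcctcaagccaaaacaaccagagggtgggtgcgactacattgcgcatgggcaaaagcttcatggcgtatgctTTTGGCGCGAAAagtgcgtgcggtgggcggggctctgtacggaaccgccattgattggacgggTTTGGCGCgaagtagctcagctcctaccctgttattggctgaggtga
Mcm7, GRCm38.p6 chr5:138171884-138172133, minus strand: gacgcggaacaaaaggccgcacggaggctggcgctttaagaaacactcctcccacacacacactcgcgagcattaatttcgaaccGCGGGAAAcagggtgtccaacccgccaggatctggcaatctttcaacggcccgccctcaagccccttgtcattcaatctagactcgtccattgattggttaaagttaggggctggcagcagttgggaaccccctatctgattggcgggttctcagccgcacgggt
Cdc6, GRCm38.p6 chr11:98907901-98908150, plus strand: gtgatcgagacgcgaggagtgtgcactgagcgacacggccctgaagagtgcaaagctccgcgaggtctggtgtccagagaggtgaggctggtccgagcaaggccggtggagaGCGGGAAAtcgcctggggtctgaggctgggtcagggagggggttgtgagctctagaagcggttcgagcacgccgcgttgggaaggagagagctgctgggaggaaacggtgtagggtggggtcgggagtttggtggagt

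After the start site, matches began at base 20 and base 39 of Mcm3, base 17 of Mcm7 and base 33 of Cdt1, counting the start site as base 1. The stretches of 30 bases that hold them are shown in the same way, since Mcm3 and Cdt1 held E2F-type letters only there.
Mcm3, GRCm38.p6 chr1:20820267-20820296, minus strand: gtgGCGGGAAAacttgggaagtTTTGGCGC
Mcm7, GRCm38.p6 chr5:138171843-138171872, minus strand: cgacgTTTCGCGCcaatttcggttggccgg
Cdt1, GRCm38.p6 chr8:122568035-122568064, plus strand: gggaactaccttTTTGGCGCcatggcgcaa
The windows of Mcm2 and Pcna held none of these letters, which says nothing about binding of an E2F factor there.

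Total counts ran from 2320599 to 11607085 per library. The Skp1a-labelled libraries stood apart from the wt libraries before any gene was tested. Mitochondrial genes took 5.98% to 15.8% of their counts against 2.44% to 4.01%, and background, measured on chemoreceptor genes, was 3.54 to 17.0 times that of the cleanest library against 1 to 2.09 times. Skp1acont lot 2 was the library with the smallest total and with the largest mitochondrial share and background, and its log2 CPM correlated with lot 1 at r = 0.795 across genes, against 0.966 to 0.980 in the other groups with 2 lots. Skp1a itself, counted over the whole gene, ran from 930 to 1337 CPM (read counts scaled to library size, here with TMM normalization) in wt, and stood at 303 and 104 in Skp1acont, 273 in Skp1acont PI, and 199 and 212 in Skp1aKO. Its level thus did not set Skp1aKO apart from Skp1acont, and every direction below is between labels. The calls on the 10 genes are given with and without Skp1acont lot 2 in the comparisons with a Skp1a label. For neighbouring genes this is done for some lists only, and not for Skp1acont PI against wt PI.

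The 10 genes together took 0.208% to 0.244% of the counts in the wt libraries and 0.0736% to 0.189% in the Skp1a-labelled libraries. Per kb of their longest coding transcript, the levels in wt at 9.5 dpc ran in the order Pcna, Gmnn, Mcm4, Mcm6, Mcm7, Mcm3, Mcm2, Mcm5, Cdt1 and Cdc6. Pcna, the clamp gene, stood at 780 ± 14.4 CPM per kb and Gmnn at 297 ± 56.6 (mean ± SD, n = 2). The helicase genes followed at 67.6 ± 0.70 (Mcm4), 58.9 ± 6.09 (Mcm6), 54.9 ± 3.05 (Mcm7), 44.2 ± 2.02 (Mcm3), 40.7 ± 0.11 (Mcm2) and 28.7 ± 4.90 CPM per kb (Mcm5). Cdt1 had 25.6 ± 1.81 and Cdc6, the loading ATPase, 10.2 ± 0.58 CPM per kb. Within this order Mcm6 and Mcm7, and Mcm5 and Cdt1, differed by less than the sum of their SDs. The clamp and the inhibitor transcript were thus each present at several times the level of any single helicase or loader transcript.

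**Figure D1:**
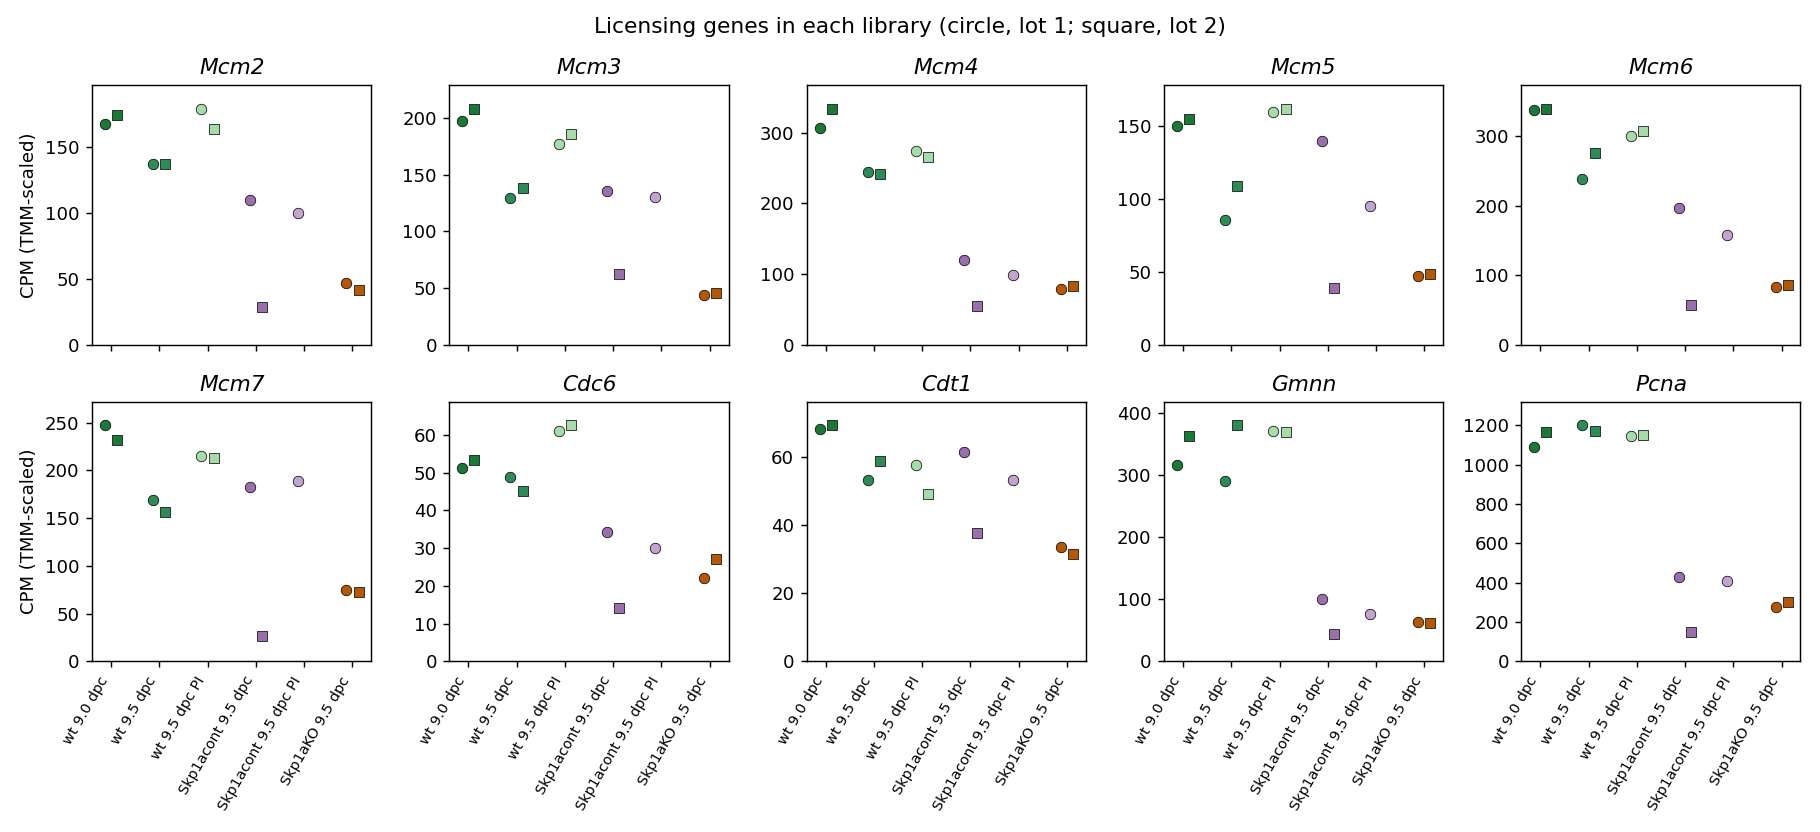
Level of each licensing gene in each of the 11 libraries, in TMM-scaled CPM on a linear axis from 0, by group, with lot 1 as circles and lot 2 as squares. The 6 Mcm genes are lower in wt at 9.5 dpc than in wt at 9.0 dpc and wt PI, while for Gmnn and Pcna the highest of the 5 points with a Skp1a label is below the lowest of the 6 wt points.

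The first comparison, wt at 9.5 dpc against wt at 9.0 dpc, asks how the genes differ between the 2 stages. All 6 helicase genes fell, by 0.29 to 0.62 on the log2 scale, while none of Cdc6, Cdt1, Gmnn and Pcna passed the test. Calls rest on edgeR's quasi-likelihood test with an adjusted p below 0.05, the adjustment running over all 13126 genes tested in the 6 wt libraries, of which 16.7% were called lower, 15% higher and 31.7% in either direction. Values of the 2 stages did not overlap in 9 of the 10 genes, against 64.8% of all genes tested. The median log2 fold change was -0.45 over Mcm2 to Mcm7, -0.33 over the 10 genes and -0.02 over all genes tested.

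Mcm5, a helicase subunit at the ring's Mcm2/Mcm5 gate (ENSMUSG00000005410.6, GRCm38 chromosome 8, 75109569 to 75128439), had 149 and 155 CPM at 9.0 dpc and 85.2 and 109 CPM at 9.5 dpc. Both later libraries were below both earlier ones, and the log2 fold change was -0.62 ± 0.11 (SE, adjusted p = 0.00255). Mcm3, which partners Mcm5 in the ring (ENSMUSG00000041859.10, chromosome 1, 20802968 to 20820312), had 198 and 208 CPM against 130 and 138 CPM (-0.57 ± 0.09, adjusted p = 0.00146). Mcm7 (ENSMUSG00000029730.16, chromosome 5, 138164583 to 138172422) had 247 and 232 CPM against 169 and 156 CPM (-0.53 ± 0.10, adjusted p = 0.00352). Mcm7 shares 557 exonic bases with Ap4m1 and Cops6 on the opposite strand and with Mir25 and Mir93, and no source used here gives the use of strand in counting, which leaves its count less certain than the others.

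The remaining helicase genes fell less. Mcm4 (ENSMUSG00000022673.5, chromosome 16, 15623897 to 15637400) had 307 and 334 CPM at 9.0 dpc and 245 and 241 CPM at 9.5 dpc, a log2 fold change of -0.37 ± 0.09. Mcm6 (ENSMUSG00000026355.11, chromosome 1, 128331590 to 128359664) had 337 and 340 CPM against 238 and 275 CPM, also -0.37 ± 0.10. Mcm2, the subunit that also binds histones (ENSMUSG00000002870.8, chromosome 6, 88883474 to 88898780), had 167 and 175 CPM against 137 and 137 CPM and the smallest change, -0.29 ± 0.09. Their adjusted p-values were 0.015, 0.0156 and 0.0413, so Mcm2 stood nearest to the threshold.

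The loaders, the inhibitor and the clamp did not pass. Cdc6 (ENSMUSG00000017499.15, chromosome 11, 98907801 to 98923940) had 51.2 and 53.5 CPM at 9.0 dpc and 48.8 and 45.0 CPM at 9.5 dpc, a log2 fold change of -0.13 ± 0.11 (adjusted p = 0.414). Cdt1 (ENSMUSG00000006585.3, chromosome 8, 122568015 to 122573554) had 68.1 and 69.2 CPM against 53.2 and 58.8 CPM, and its -0.26 ± 0.11 missed the threshold (adjusted p = 0.106). Gmnn (ENSMUSG00000006715.11, chromosome 13, 24751845 to 24761923) had 316 and 362 CPM against 289 and 380 CPM, with the later pair on both sides of the earlier one. Pcna (ENSMUSG00000027342.14, chromosome 2, 132249162 to 132253314) had 1091 and 1167 CPM against 1200 and 1169 CPM, a log2 fold change of 0.10 ± 0.09 (adjusted p = 0.463). Pcna-ps1 and Pcna-ps2, processed copies of Pcna, are separate rows of the table, and reads could be split between them.

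The call on Mcm3, Mcm5 and Mcm7 held in all alternatives except the fit of all 6 groups, whose larger spread left 0 of the 10 genes called. Only these 3 were called with library totals in place of TMM, with no filter on low counts, and without wt 9.0 dpc lot 2. Leaving out any other wt library of the comparison left 4 called.

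Of the 50 genes of origin recognition, firing, other MCM proteins, polymerases, fork protection and nucleotide supply, 13 fell and 1 rose, beside 16.7% lower and 15% higher over all genes, and their median log2 fold change was -0.18. Origin recognition genes fell in 4 of 6 cases, with Orc1 at -0.80 ± 0.13 and Orc5 at -0.75 ± 0.17 (adjusted p = 0.00173 and 0.0104). Among 14 genes of helicase activation and origin firing 4 fell, led by Mcm10, which helps the helicase unwind (-0.69 ± 0.12), and Wdhd1, which ties it to polymerase alpha (-0.61 ± 0.11). Of 19 clamp loading and polymerase genes 4 fell, with the polymerase delta subunits Pold2 (-0.89 ± 0.17) and Pold1 (-0.57 ± 0.17) foremost. Mcm9, a relative of the helicase genes that acts in repair, was the 1 gene that rose (0.62 ± 0.21, adjusted p = 0.0447).

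Among regulators of S phase, read beside the same 16.7% and 15%, 2 of 12 fell and 1 rose. Ccne1, the cyclin E1 gene of S phase entry, fell (-0.80 ± 0.15), E2f3 fell (-0.38 ± 0.11) and E2f2 rose (1.28 ± 0.27), and no other gene of E2F and S phase control passed. Of 13 ligase genes acting on licensing factors 5 fell and 1 rose. Cks1b, the cofactor of Skp2, fell by 0.83 on the log2 scale and Ddb1, the adaptor of the Cul4 ligase, by 0.52, while Lrr1, which acts in unloading the helicase, rose by 0.33. Of 17 mitosis genes, a list set beside the licensing genes, 5 fell and 1 rose, with Cdk1 at -0.76 ± 0.12, Plk1 at -0.75 ± 0.14 and Mki67 at 0.56 ± 0.10.

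The makeup of the embryonic material differed between the stages as well. Summed over 8 early neuron markers, levels were 88.6 to 97.8 CPM at 9.0 dpc and 637 to 708 CPM at 9.5 dpc, and all 8 were called higher. Over 8 neural progenitor markers they were 316 to 348 and 1448 to 1609 CPM, of which Fabp7 made up 99.1 to 111 and 1049 to 1111 CPM. Sums were, over 7 primitive erythroid markers, 7726 to 8002 and 14835 to 19737 CPM, and over 5 surface epithelium markers 226 to 238 and 25.3 to 32.3 CPM. Over 4 macrophage and platelet markers they were 0.692 to 2.61 and 98.7 to 111 CPM. Endothelial sums (6 markers) were 176 to 487 and 170 to 467 CPM, with Pecam1 at 419 in lot 1 and 104.5 in lot 2 of the earlier pair and at 382.5 and 91.7 CPM in the later one, and head mesenchyme sums (6 markers) 156 to 185 and 127 to 139 CPM. No marker was at 0 in all libraries. Every library title also carries the letters "mb", whose meaning is not explained. Whether they name the part of the embryo that was sampled is not known here, and no other label names it. The part of these cells in the fall of the helicase genes was not tested. In bulk RNA, fewer cells of a type and less RNA per cell cannot be told apart.

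**Figure D2:**
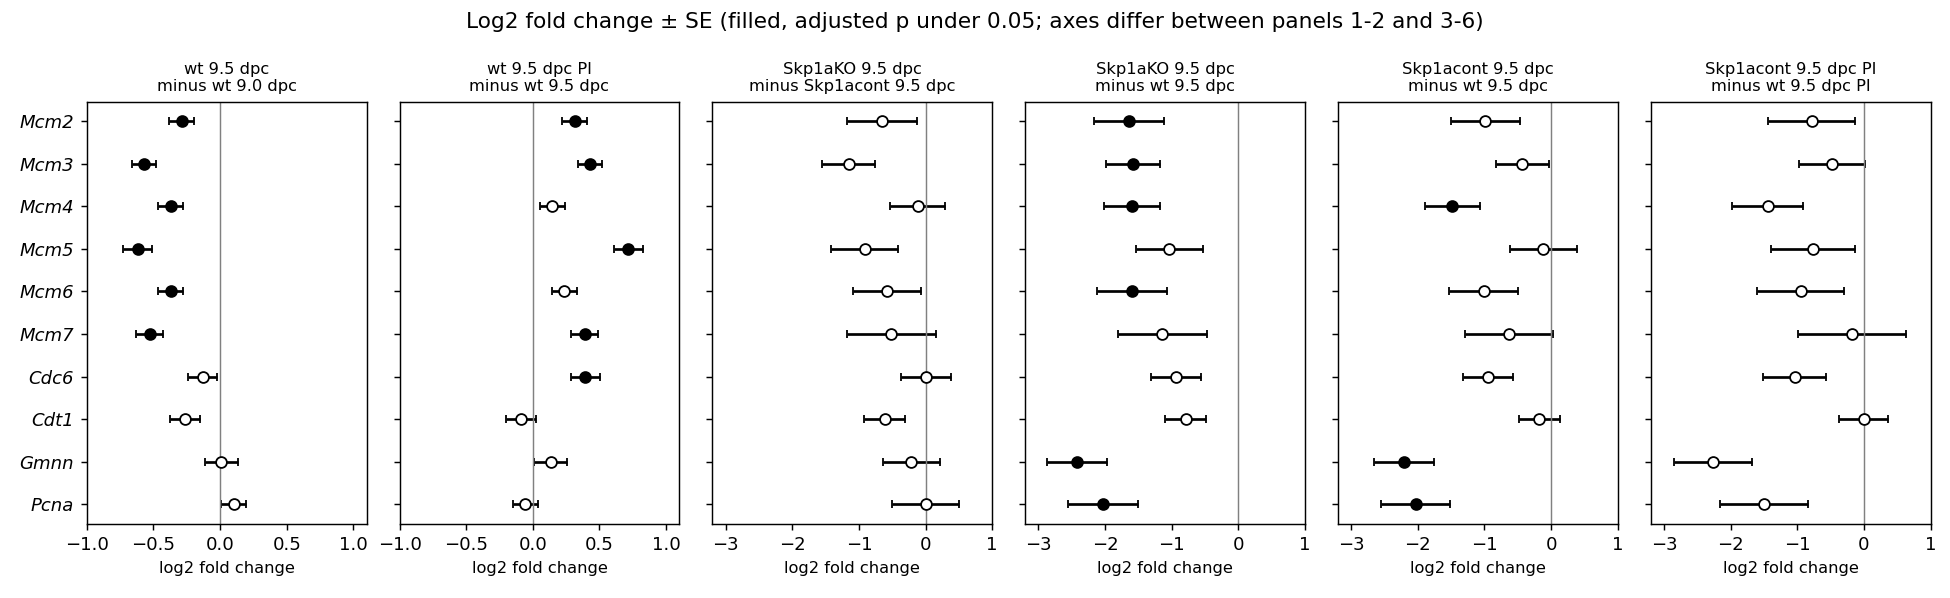
Log2 fold change of each gene in each of the 6 comparisons, with the standard error as a bar, filled where the adjusted p of edgeR's quasi-likelihood test was under 0.05, on a narrower axis in the 2 wt comparisons. The 6 Mcm points are filled and negative between wt stages, 5 points are filled and positive for PI, and the points for Skp1aKO against Skp1acont are all open with wide bars.

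The second comparison sets wt PI against wt at 9.5 dpc, and shares the wt 9.5 dpc libraries with the first. With PI, 5 genes rose, Mcm2, Mcm3, Mcm5, Mcm7 and Cdc6, by 0.31 to 0.72 on the log2 scale, and none fell. Over all genes tested, 15.6% were called higher and 28% in either direction. The largest change was again that of Mcm5, from 85.2 and 109 CPM to 159 and 162 CPM (0.72 ± 0.11, adjusted p = 0.00153). Values of the 2 groups did not overlap in 8 of the 10 genes, against 65.7% of all genes tested.

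Mcm3 went from 130 and 138 CPM to 177 and 186 CPM with PI (0.43 ± 0.09, adjusted p = 0.00739). Mcm7 went from 169 and 156 CPM to 215 and 213 CPM (0.39 ± 0.10, adjusted p = 0.0177), and Mcm2 from 137 and 137 CPM to 179 and 164 CPM (0.31 ± 0.09, adjusted p = 0.0327). The lots lay close together beside the gap between the groups in each of these. Cdc6 went from 48.8 and 45.0 CPM to 61.0 and 62.6 CPM (0.39 ± 0.11, adjusted p = 0.0243), so the loader gene was called here although it was not called between the stages. Mcm4 (274 and 266 CPM with PI) and Mcm6 (301 and 308 CPM) had higher values with PI without passing, at 0.15 ± 0.09 and 0.24 ± 0.10 (adjusted p = 0.294 and 0.0928). With the lot as a block, Mcm6 passed as well (adjusted p = 0.0367) and 6 genes were called.

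Cdt1, Gmnn and Pcna gave no call with PI. Their log2 fold changes were -0.09 ± 0.11, 0.14 ± 0.12 and -0.06 ± 0.09, with 57.6 and 49.0, 370 and 368, and 1144 and 1153 CPM in the PI libraries. Mcm3 and Mcm5 were called with no filter on low counts and without wt 9.5 dpc lot 2, and Mcm3, Mcm5 and Mcm7 with DESeq2. Correction for GC content, chosen after seeing the data, left Cdc6, Mcm3 and Mcm5. Leaving out either PI library left Mcm5 alone, and the fit of all 6 groups left 0 called.

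Side by side, the summed CPM of the helicase genes was 1406 and 1443 for the 9.0 dpc libraries, 1003 and 1057 for the 9.5 dpc libraries and 1306 and 1298 with PI. The PI values lay between those of the 2 stages, nearer to 9.0 dpc. Relative to the summed count of 17 mitosis genes, Mcm2 to Mcm7 stood at 0.324 and 0.293 in wt at 9.0 dpc. In wt at 9.5 dpc this ratio was 0.269 and 0.260, and in wt PI 0.279 and 0.273.

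Of the same 50 replication genes, 14 rose and 2 fell with PI, beside 15.6% higher and 12.4% lower over all genes, with a median log2 fold change of 0.19 against 0.01 over all genes. Origin recognition genes rose in 4 of 6 cases, with Orc5 at 0.89 ± 0.17 and Orc2 at 0.59 ± 0.11. Mcm10 rose by 0.68 ± 0.12 and Mtbp, a firing factor, by 0.52 ± 0.15, and Topbp1 fell by 0.40 on the log2 scale. Pold2 (1.28 ± 0.17) and Rpa2, of the single-strand binding complex (0.73 ± 0.14), rose and Rpa3 of the same complex fell (-0.50 ± 0.12). Timeless, of the fork protection complex, rose by 0.65 ± 0.12, and the nucleotide supply genes Tk1 and Rrm2 rose by 0.94 ± 0.12 and 0.52 ± 0.10. The other MCM proteins gave no call.

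The next lists are read beside the same 15.6% higher and 12.4% lower over all genes. Ccne1 rose by 0.83 ± 0.15 with PI, alone among the 12 genes of E2F and S phase control. Among the 13 ligase genes 4 rose, Fzr1 of the anaphase-promoting complex by 0.85 ± 0.19 and Cks1b by 0.79 ± 0.11 among them. The 2 that fell were Lrr1 (-0.56 ± 0.11) and Dtl, the receptor that directs Cul4 to Cdt1 (-0.48 ± 0.09, adjusted p = 0.00507). Skp2 was at 135 and 137 CPM without PI and at 119 and 128 CPM with it, and was not called. Of the mitosis genes 7 rose and 1 fell, with Plk1 at 1.20 ± 0.14, Aurka at 1.20 ± 0.16 and Mki67 at -0.69 ± 0.10.

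Cell type markers differed with PI too. Early neuron markers summed to 248 to 253 CPM, neural progenitor markers to 452 to 470 CPM, erythroid markers to 7197 to 9107 CPM, surface epithelium markers to 45.3 to 55.5 CPM and macrophage and platelet markers to 21.1 to 22.8 CPM. Endothelial sums were 186 to 477 CPM and head mesenchyme sums 95.8 to 98.8 CPM. The first 5 sums lay between those of the 2 wt stages or, for erythroid markers, overlapped those of wt at 9.0 dpc. Their part in the rise of the helicase genes was not tested.

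**Figure D3:**
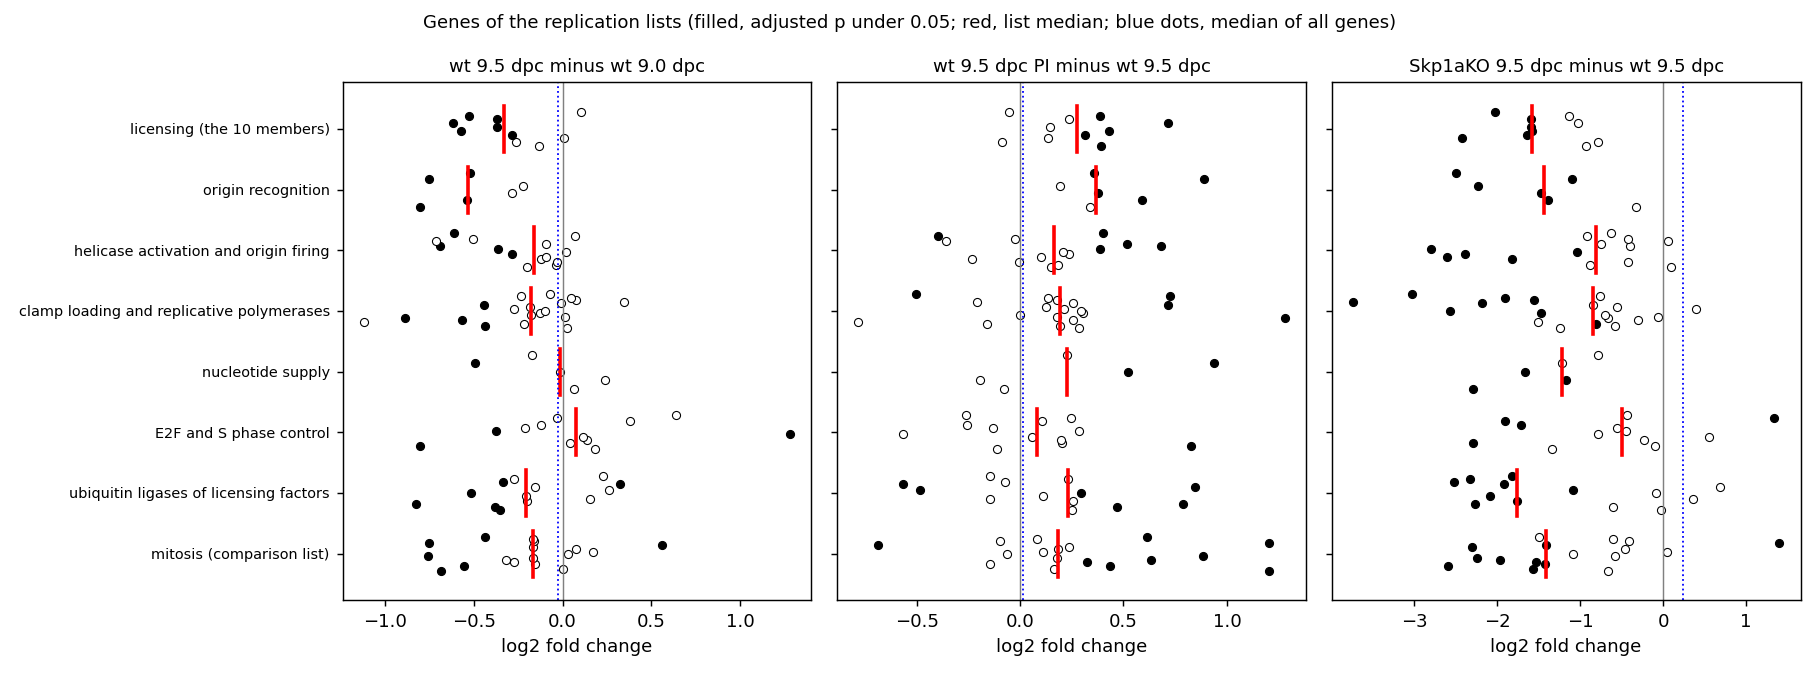
Log2 fold change of the 10 licensing genes and of each gene in 7 neighbouring lists (those of other MCM proteins and fork protection are not drawn) in 3 comparisons, 1 point per gene, filled where the adjusted p was under 0.05, with the list median as a red bar and the median of all genes tested as a blue dotted line. The red bars of licensing and origin recognition lie left of the blue line between wt stages, right of it with PI, and far left of it in Skp1aKO against wt, where the axis is wider.

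The third comparison sets Skp1aKO against Skp1acont, both at 9.5 dpc, and gave no call on any of the 10 genes. The fit of all 6 groups tested 18837 genes with edgeR's quasi-likelihood test and called 0 of them, 0% (smallest adjusted p = 0.0824), with 1308 at an unadjusted p under 0.05. Of the licensing genes 1, Mcm3, was under that unadjusted level. DESeq2 called 96 genes, with Mcm3 the 1 licensing gene among them. Values did not overlap in 2 of the 10 genes, Mcm3 and Cdt1, against 23.3% of all genes tested.

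The Skp1acont libraries were unlike each other in these genes. Mcm7 had 183 CPM in lot 1 and 26.9 CPM in lot 2 of Skp1acont, and 74.9 and 72.4 CPM in Skp1aKO. Mcm2 had 110 and 28.4 CPM against 46.4 and 41.5 CPM, and Mcm6 had 197 and 57.1 CPM against 83.7 and 86.6 CPM. The Skp1aKO values agreed closely with each other and lay between those of the Skp1acont lots in these 3 genes and in Mcm4, Mcm5, Cdc6, Gmnn and Pcna. Mcm3, with 135 and 62.8 CPM against 44.1 and 45.3 CPM, had a log2 fold change of -1.15 ± 0.40 (adjusted p = 0.565), and Cdt1, with 61.4 and 37.7 CPM against 33.4 and 31.6 CPM, -0.61 ± 0.30 (adjusted p = 0.774).

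The direction turned on which Skp1acont library was used. Without Skp1acont lot 2, 9 genes were called lower in Skp1aKO (17.5% of 17019 genes tested were called lower, 9.79% higher and 27.3% in either direction), from Pcna at -0.55 ± 0.20 to Mcm3 at -1.58 ± 0.21, and Cdc6 was not (-0.46 ± 0.22, adjusted p = 0.127). Without Skp1acont lot 1, 7 were called, of which Mcm2, Mcm4, Mcm6, Mcm7, Cdc6 and Pcna were higher in Skp1aKO and Mcm3 was lower, where 21.2% of 18271 genes were called higher and 10.1% lower. Each of these fits sets 2 Skp1aKO libraries against 1 Skp1acont library, which is assumed to vary like the other groups. Mcm3 and Cdt1 had lower values in Skp1aKO than in either Skp1acont library, where 23.3% of all genes did not overlap in either direction. These fits share both Skp1aKO libraries, so they are not independent of each other.

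Background bears most on the low genes. Reads at the rate per kb of chemoreceptor genes, over the longest coding transcript, would make up 28.3% of the Cdc6 count (47 reads) and 10.3% of the Mcm2 count (94 reads) in Skp1acont lot 2. Over the merged exons of all transcripts, which for Mcm2 are longer, the shares were 32.1% and 21.4%. By coding transcript the shares in Skp1aKO were 9.66% and 8.68% for Cdc6 and 3.35% and 4.15% for Mcm2, and in each wt library both shares were under those of any Skp1a-labelled library. For Gmnn the highest share was 2.20% and for Pcna 0.878%. The part of background in the differences was not tested.

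The fourth comparison set Skp1aKO against wt at 9.5 dpc. Here 6 genes fell, Mcm2, Mcm3, Mcm4, Mcm6, Gmnn and Pcna, and none rose, against 18.7% of 18837 genes called lower and 17.6% called higher. Values did not overlap in any of the 10 genes, against 84.5% of all genes tested. The median log2 fold change of the 10 genes was -1.59, against 0.24 over all genes.

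Gmnn had the largest change, from 289 and 380 CPM in wt to 63.8 and 60.9 CPM in Skp1aKO (-2.42 ± 0.45, adjusted p = 0.00699). Pcna went from 1200 and 1169 CPM to 276 and 303 CPM (-2.03 ± 0.52, adjusted p = 0.0187). The inhibitor and the clamp, which did not change between wt stages past the test, thus had the largest differences here. Mcm2 went from 137 and 137 CPM to 46.4 and 41.5 CPM (-1.64 ± 0.53, adjusted p = 0.0379), and Mcm4 from 245 and 241 CPM to 78.3 and 82.4 CPM (-1.59 ± 0.42, adjusted p = 0.0203). Mcm6 and Mcm3 differed by -1.59 ± 0.52 and -1.58 ± 0.40 (adjusted p = 0.0398 and 0.0185). The 4 called helicase genes were thus each about 3.0 to 3.1 times lower in Skp1aKO.

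Mcm5 (46.7 and 48.1 CPM in Skp1aKO), Mcm7 (74.9 and 72.4 CPM), Cdc6 (22.0 and 27.2 CPM) and Cdt1 (33.4 and 31.6 CPM) were not called, at -1.03 ± 0.51, -1.14 ± 0.67, -0.93 ± 0.37 and -0.79 ± 0.31. Without Skp1acont lot 2, which enters the fit through the shared spread, all 10 were called lower (31.8% of genes were lower, 36.1% higher and 67.9% either), with Gmnn at -2.29 ± 0.19 and Cdt1, the smallest, at -0.65 ± 0.18. With library totals in place of TMM, Gmnn alone passed. After correction for GC content 6 were called lower again, with Cdt1 in place of Mcm6. Without wt lot 1 Gmnn alone was called, and without wt lot 2 or either Skp1aKO lot 0 were called.

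The fifth comparison, Skp1acont against wt at 9.5 dpc, shares its wt libraries with the fourth. Mcm4, Gmnn and Pcna fell, at -1.48 ± 0.42, -2.21 ± 0.45 and -2.03 ± 0.52 (adjusted p = 0.0257, 0.0104 and 0.019), and 17.1% of genes were called lower. Gmnn had 99.8 and 44.7 CPM in Skp1acont, Pcna 428 and 151 CPM and Mcm4 119 and 54.3 CPM, each lot below both wt libraries. Values did not overlap in 6 of the 10 genes, against 70.2% of all genes. Without Skp1acont lot 2 the same 3 were called lower, at -0.90 ± 0.21, -1.63 ± 0.24 and -1.34 ± 0.21 (19.2% of genes were lower), and Mcm5 was called higher (0.64 ± 0.21, adjusted p = 0.02, 19.9% of genes were higher). Without Skp1acont lot 1 all 10 were called lower, where 35.6% of 18271 genes were called lower and 38.4% higher, and without either wt lot 0 were called. With library totals and after correction for GC content, Gmnn and Pcna were called and Mcm4 was not. Mcm5 stood at 139 CPM in Skp1acont lot 1, above the wt values of 85.2 and 109 CPM, and 38.9 CPM in lot 2, below them.

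In the sixth comparison the lone Skp1acont PI library was set against the wt PI libraries, with its spread borrowed from the other groups. None of the 10 genes was called by edgeR's quasi-likelihood test, which called 83 of 18837 genes, 0.441%. The median log2 fold change was -0.86 over the 10 genes and 0.10 over all genes tested. Gmnn had 76.9 CPM against 370 and 368 CPM (-2.26 ± 0.59, adjusted p = 0.0802), Pcna 406 CPM against 1144 and 1153 CPM (-1.5 ± 0.66, adjusted p = 0.198) and Mcm4 99.2 CPM against 274 and 266 CPM (-1.45 ± 0.54, adjusted p = 0.15). Cdt1, with 53.2 CPM, lay between the wt PI values of 57.6 and 49.0 CPM, and the other 9 genes lay outside the wt PI values, against 88.5% of all genes. Without Skp1acont lot 2 in the fit, 7 genes were called lower, Mcm2, Mcm4, Mcm5, Mcm6, Cdc6, Gmnn and Pcna (22.5% of genes were lower and 43.2% called in either direction). The difference of the PI effect between Skp1acont and wt was not called for any of the 10 genes (adjusted p from 0.893 to 1).

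Across all 11 libraries, Mcm2, Mcm4, Mcm6, Cdc6, Gmnn and Pcna did not overlap between labels under TMM, with all 5 libraries of the Skp1a labels below the lowest wt value, 6 of 10 genes beside 21.3% of all genes tested. Scaled to library totals this held for Mcm4, Gmnn and Pcna alone, 3 of 10 beside 7.79%. Scaling shifts every gene alike: over all genes, Skp1aKO against wt had a median log2 fold change of 0.24 with TMM, 0.47 with size factors and 1.04 with library totals. Relative to that median the licensing genes lay lower under each scaling.

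Ratios within a library do not depend on the scaling. The count of Cdt1, the loading factor, over the count of Gmnn, its inhibitor, was 0.216 and 0.191 at 9.0 dpc, 0.184 and 0.155 at 9.5 dpc, and 0.156 and 0.133 with PI in the wt libraries. In the Skp1a-labelled libraries it was 0.523 and 0.518 (Skp1aKO), 0.615 and 0.845 (Skp1acont) and 0.692 (Skp1acont PI). Every Skp1a-labelled library was thus above every wt library. The 95% exact binomial interval, which covers counting error only, ran from 0.420 to 0.636 in the lowest of the former. In the highest of the latter the interval ran from 0.184 to 0.252. Gmnn alone also separated the labels, and how often ratios of other gene pairs do so was not counted. Against wt, the log2 fold change of Gmnn was more negative than that of Cdt1 in each of the last 3 comparisons. The ratio is of counts and not of molecules, since Gmnn has a shorter transcript.

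The 2 transcripts differ in GC content, 57.8% for Cdt1 and 49.8% for Gmnn, and the log2 fold change of Skp1aKO against wt at 9.5 dpc varied with GC content over all genes. Its median over 10 equal bins of genes was 1.12 in the bin of lowest GC, 0.75 in the bin of highest GC, and -0.36 to 0.41 in the bins between. The difference between the log2 fold changes of Cdt1 and Gmnn was 1.64 before and 1.23 after correction for GC content in this comparison, 2.03 and 1.53 in Skp1acont against wt, and 2.26 and 1.66 in the PI libraries. The difference kept its sign in all 3 comparisons after correction and was smaller.

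**Figure D4:**
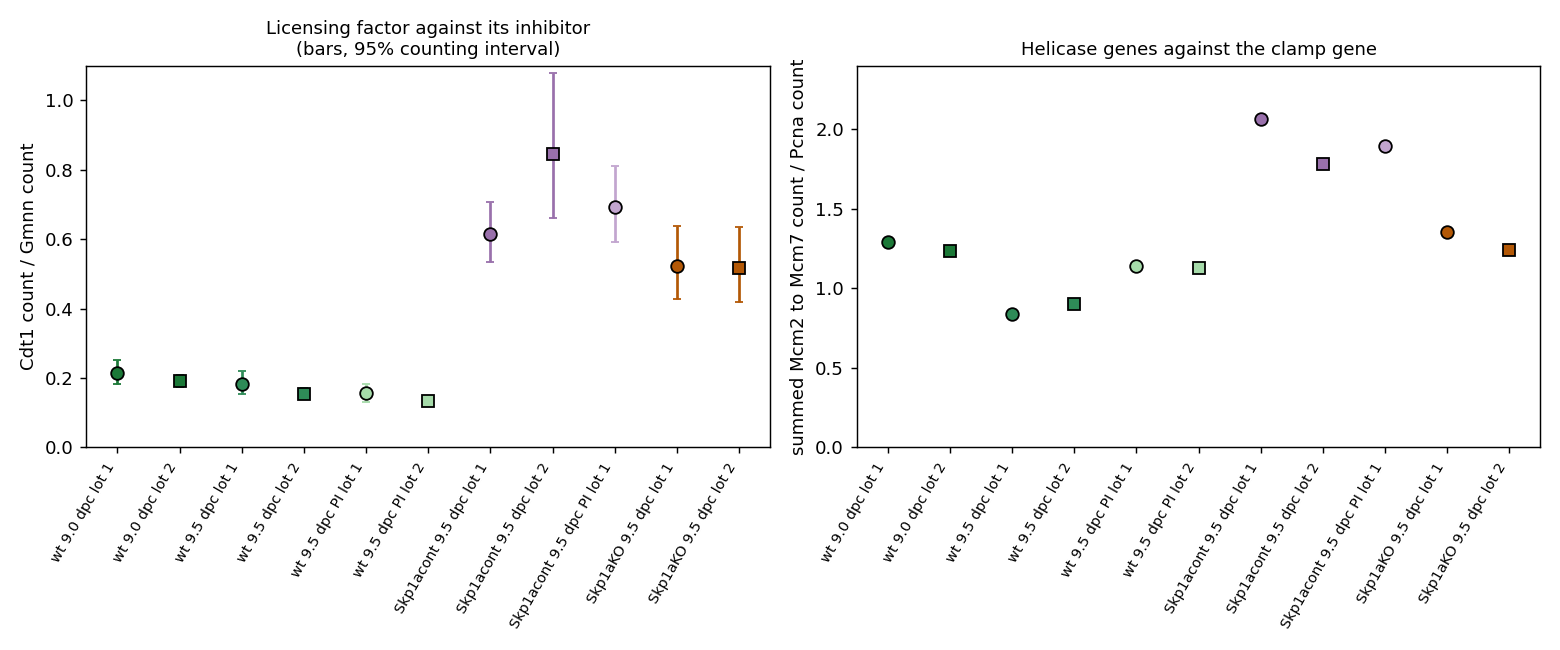
Ratio of Cdt1 to Gmnn counts (left, bars are 95% exact binomial intervals of counting error) and of summed Mcm2 to Mcm7 counts to Pcna counts (right) in each library, on linear axes from 0. In the left panel the 5 Skp1a-labelled libraries lie at 0.518 to 0.845 and the 6 wt libraries at 0.133 to 0.216, while the ranges of the right panel overlap.

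The helicase genes and the clamp gene also kept different proportions. The summed count of Mcm2 to Mcm7 over that of Pcna was 1.29 and 1.24 in the earlier wt pair, 0.836 and 0.904 in the later wt pair and 1.14 and 1.13 with PI. Among the Skp1a labels it was 1.36 and 1.24 in Skp1aKO, 2.06 and 1.78 in Skp1acont and 1.90 in Skp1acont PI. Within the wt libraries the 9.5 dpc pair was lowest, as the helicase genes fell and Pcna did not. Skp1aKO overlapped wt at 9.0 dpc, and the Skp1acont libraries stood highest. The ratio of Mcm genes to mitosis genes overlapped between the labels, at 0.203 to 0.395 in the Skp1a-labelled libraries against 0.260 to 0.324 in wt.

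As the helicase holds 1 of each subunit, the share of each Mcm transcript in the 6 was compared per kb of transcript. In the wt libraries Mcm4 took 19.8% to 23.6%, Mcm6 18.3% to 20.97%, Mcm7 17.5% to 20.6%, Mcm3 14.8% to 16.5%, Mcm2 12.2% to 14.1% and Mcm5 8.74% to 12.8%. Mcm5 had its lowest shares in wt at 9.5 dpc, 8.74% and 10.7%. The Skp1aKO libraries kept Mcm4 at 20.1% and 21.1%, inside the wt range, with Mcm3 at 13.4% and 13.7%, below it. In Skp1acont lot 1 and Skp1acont PI, Mcm4 took 12.9% and 12.1%, below every other library, and Mcm7 23.8% and 27.98%. Skp1acont lot 2 had 26.6% Mcm3 and 11.6% Mcm7, outside the values of all other libraries in both. Mcm6 was the 1 subunit whose shares did not overlap, at 15.9% to 18.3% in the Skp1a-labelled libraries, with the nearest pair 18.27% and 18.34%.

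**Figure D5:**
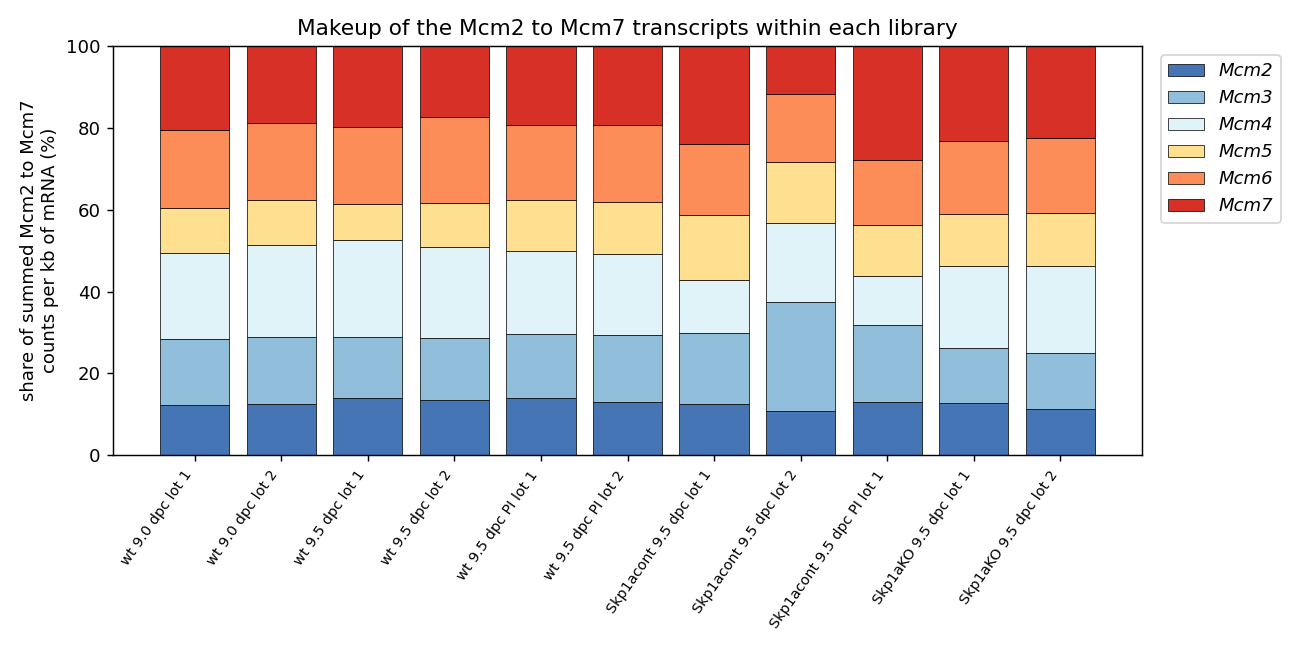
Share of each of Mcm2 to Mcm7 in their summed counts per kb of transcript, in percent, as stacked bars that add to 100% in each library. The 6 wt bars are alike, while Skp1acont lot 1 and Skp1acont PI have thin Mcm4 and thick Mcm7 segments and Skp1acont lot 2 the widest Mcm3 and the thinnest Mcm7 segment.

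In Skp1aKO against wt, 24 of the 50 replication genes fell and none rose, beside 18.7% lower and 17.6% higher over all genes (median log2 fold change -1.07). In Skp1acont against wt 21 fell and none rose, beside 17.1% and 19.3% (-0.98). Without Skp1acont lot 2 the counts were 37 lower and 0 higher in Skp1aKO, beside 31.8% and 36.1%, and 20 lower and 5 higher in Skp1acont, beside 19.2% and 19.9%. Origin recognition genes fell in 5 of 6 cases in both, with Orc6 at -2.50 ± 0.54 and Orc4 at -2.23 ± 0.36 in Skp1aKO. The firing list gave 5 of 14 lower in Skp1aKO, led by the GINS genes Gins4 (-2.80 ± 0.73) and Gins1 (-2.60 ± 0.47), and 4 of 14 in Skp1acont, led by Donson (-2.17 ± 0.45). Clamp loading and polymerase genes fell in 8 of 19 cases in Skp1aKO and 7 of 19 in Skp1acont. Rfc4, of the complex that loads Pcna, was at -3.74 ± 0.53 and -2.46 ± 0.50 in these comparisons, and Rpa3 at -3.03 ± 0.49 and -2.73 ± 0.49.

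The smaller lists are read beside the same 18.7% lower and 17.6% higher over all genes. Mcm8 (-1.76 ± 0.43) and Mcm9 (-1.21 ± 0.32) fell in Skp1aKO, as did Tipin of the fork protection complex (-2.84 ± 0.54) and 3 of 5 nucleotide supply genes, with Rrm2 at -1.66 ± 0.54. Of E2F and S phase control 3 fell and 1 rose in Skp1aKO, with cyclin gene Ccne2 at -2.30 ± 0.53, the repressor genes E2f6 at -1.91 ± 0.29 and E2f7 at 1.34 ± 0.39. Of the mitosis genes 8 fell and 1 rose, Birc5 (-2.60 ± 0.60) and Mad2l1 (-2.30 ± 0.39) among the former and Plk1 (1.40 ± 0.28) the latter. The median log2 fold change of the mitosis list was -1.41, beside -1.59 for the licensing genes. Leaving out Skp1acont lot 2 gave 5 genes of E2F and S phase control lower and 2 higher, and 13 mitosis genes lower and 1 higher. In that fit 31.8% of all genes were lower and 36.1% higher. Skp1aKO against Skp1acont gave 0 called genes in each of these lists by edgeR's quasi-likelihood test, as over all genes. Without Skp1acont lot 2 in the fit, 21 of the 50 replication genes were lower there and 0 higher, beside 17.5% and 9.79%.

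The ligase genes that act on Cdt1 and other licensing factors fell in 8 of 13 cases in Skp1aKO against wt and in 7 of 13 in Skp1acont. Over all genes 18.7% and 17.1% were called lower. Without Skp1acont lot 2, 9 were lower and 2 higher in Skp1aKO, beside 31.8% and 36.1% over all genes. For Skp1acont, then left with 1 library, the median log2 fold change of the list was -0.75, beside 0.19 over all genes. Skp1a was at -2.33 ± 0.54 in Skp1aKO and Rbx1, the RING subunit of both ligases, at -2.53 ± 0.65. Skp2 had 40.7 and 36.4 CPM in Skp1aKO against 135 and 137 CPM in wt (-1.82), Cul1 64.2 and 47.3 CPM against 182 and 198 CPM (-1.77), and Dtl 74.5 and 83.0 CPM against 156 and 178 CPM (-1.09). Each of the 3 was called, and each was also lower in both Skp1acont lots than in wt at 9.5 dpc. The levels of Cdt1 and geminin protein were not measured.

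Marker genes differed between these labels at the same time. In the Skp1a-labelled libraries erythroid markers summed to 604 to 4647 CPM, neural progenitor markers to 221 to 501 CPM, early neuron markers to 190 to 421 CPM, and head mesenchyme markers to 57.0 to 88.3 CPM. Each of these 4 sums lay below both libraries of wt at 9.5 dpc, while the early neuron and neural progenitor sums overlapped those of wt PI. In Skp1aKO against wt at 9.5 dpc, 4 of 8 early neuron markers fell and none was called higher. Their median log2 fold change was -1.06, or -0.92 without Skp1acont lot 2 in the fit. Among those not called, Elavl3 (0.78 ± 0.33) and Nhlh1 (1.07 ± 0.72) had positive values, and Tubb3 and Elavl4 negative ones. Of 6 head mesenchyme markers 2 fell and Foxc2 rose (3.43 ± 0.61), with a median of -0.29. Over all genes 18.7% were lower and 17.6% higher. Fabp7 carried most of the neural progenitor gap, with 22.6 to 178 CPM in the Skp1a-labelled libraries and 1049 and 1111 CPM in wt at 9.5 dpc. In Skp1aKO against wt at 9.5 dpc, 2 of the 8 neural progenitor markers fell, Fabp7 and Sox1, Sox3 rose, and the list's median log2 fold change was -0.18. Endothelial markers summed to 649 to 1201 CPM, above every wt library, but Pecam1 made up 567 to 1161 CPM of that and was not called (1.90 ± 0.91, adjusted p = 0.116 by edgeR). Of the 6 endothelial markers, Cdh5, Kdr and Tek fell in Skp1aKO and Tie1 rose, with a median of -1.09. Surface epithelium (21.8 to 33.7 CPM) overlapped wt at 9.5 dpc, and macrophage and platelet markers summed to 10.5 to 37.2 CPM. The part of these cell types, of mitochondrial share and of background in the lower licensing genes was not tested, and none of them can be told apart from the label in this design.

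The 5 genes whose log2 CPM was most like the mean of Mcm2 to Mcm7 over the 11 libraries, among 8720 genes with a mean of at least 10 CPM, were Banf1 (Pearson r = 0.998), Psmb3 (0.998), Gm20390 (0.996), Nme6 (0.996) and Gpx1 (0.994). Measured in the same way, Cdc6 had r = 0.950, Pcna 0.933, Gmnn 0.909 and Cdt1 0.886. These values describe 11 libraries that share their depth, scaling and the gap between the labels. Of these 4 members Cdt1 was farthest from the helicase genes. The 5 genes above were picked as the highest of 8720, so no conclusion is drawn from the 4 members lying below them.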

How the data were processed

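The authors deposited RNA-seq data as raw counts, 1 whole number for each gene and library, in a table of 11 libraries. Per the labels' protocols RNA came from an RNeasy kit and a NEBNext poly(A) module. Per the submitters' processing notes trimming used Trim Galore 0.6.7, on build GRCm38. Aligner, counter and strand setting were not given in the sources used here. Of 12 labelled libraries, Skp1acont PI lot 2 was not analysed here. Groups came from the titles, with the lot as replicate number.

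The count test was that of edgeR 4.0.16 under R 4.3.3 (filterByExpr by group, TMM, robust quasi-likelihood fit, two-sided F test, Benjamini-Hochberg over all genes tested). The wt comparisons used the 6 wt libraries (13126 genes), since adding the Skp1a-labelled libraries, with Skp1acont lot 2 among them, gave a larger spread. The other 4 comparisons used all 6 groups (18837 genes), and a lone library is assumed to vary like the other groups. The biological coefficient of variation was 19.6% and 35.3% in these fits, and 19.4% in the second without Skp1acont lot 2. DESeq2 1.42.0 was an alternative. The calculation was also run on simulated counts with the same spread for all genes and no lot effect, which says nothing about the spread of the real libraries. Levels are TMM-scaled CPM, the log2 CPM used for correlations has a prior count of 2, and levels per kb use the longest coding transcript in GENCODE M21, in place of the merged exons first planned. Of 36255 symbols, 34777 matched that annotation. Background was taken per library as the median, over 1769 chemoreceptor genes, of CPM divided by merged exon length in kb.

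Named besides the 10 genes were, per list and comparison, at most the 2 called genes with the largest change in each direction, then Skp1a, Skp2, Dtl and Cul1, and the 5 genes of most similar pattern. A gene that this rule names is not reported here. The members and lists (92 genes in 9 pathway lists, and 7 marker lists) were chosen with earlier results of these data known. Lots paired the wt libraries by a check of the data: deviations from group means correlated at r from 0.297 to 0.343 in all 3 wt pairs of groups, and from -0.01 to 0.18 in the 7 pairs with a Skp1a label. Alternatives were size factors, DESeq2, library totals, no filter, a filter of 1 CPM in 4 libraries, the lot as a block, another choice of groups in the fit, each library left out, and, added after the data were seen, a correction for transcript GC content.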

Additional observations from a re-analysis of the deposited data

How the results depend on the processing

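Of the 10 genes over all comparisons and settings, 541 values kept their sign and side of the threshold, 87 lost the call, 49 gained it and 43 changed sign. Depth limits Cdc6 most, with 47 reads in Skp1acont lot 2, and with 1 or 2 libraries per group the spread is poorly known. Where no cause is given below, the cause was not tested.

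With DESeq2, 2363 genes were called between the wt stages and 2151 with PI (3 licensing genes), 96 in Skp1aKO against Skp1acont (1 licensing gene) and 1749 in Skp1acont PI against wt PI (3). The fit of all 6 groups called 302 genes between the wt stages and 13 with PI, and 0 licensing genes in both. The fit of only the groups compared called 0 genes in Skp1acont against wt, 7998 in the PI pair (8 licensing genes) and 10 licensing genes in Skp1aKO against wt. With no filter, 3 licensing genes were called between the stages, 2 with PI, and 5 genes in Skp1aKO against Skp1acont. The GC correction left 3 licensing genes with PI and 35 genes in the Skp1acont PI pair. In that pair the stricter filter gave 617 genes and size factors 610, each with 1 licensing gene, and size factors gave 1 gene in Skp1aKO against Skp1acont. Library totals gave 1174 genes in the PI pair, 4 in Skp1aKO against Skp1acont, and 3 and 1 licensing genes between the stages and in Skp1aKO against wt. Library totals also moved the share of calls that were higher, from 48.5% to 83% in Skp1aKO against wt, from 53% to 85.1% in Skp1acont against wt, from 25.3% to 88.8% in the PI pair and from 47.2% to 64% between the stages, and the fit of all 6 groups gave 79.1% for the last. With the replicate block, 17 genes were called in the Skp1acont PI pair and 1 in Skp1aKO against Skp1acont, 5469 between the stages and 5111 with PI, and Mcm6 was the 1 licensing gene whose call it changed.

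Leaving out 1 library at a time gave 3 to 4 licensing genes and 2503 to 3391 genes between the stages, 1 to 4 and 1289 to 3188 with PI, 0 to 9 and 0 to 5723 in Skp1aKO against Skp1acont, 0 to 10 and 281 to 11548 in Skp1aKO against wt, 0 to 10 and 13 to 13512 in Skp1acont against wt, and 0 to 7 and 1 to 7347 in the PI pair. Leaving out the lone Skp1acont PI library gives no value. Log2 fold changes that changed sign on leaving out a library ran, in Skp1aKO against Skp1acont, from -0.46 to 0.77 (Cdc6), -0.66 to 0.46 (Gmnn), -1.30 to 0.61 (Mcm2), -0.55 to 0.54 (Mcm4), -1.54 to 0.26 (Mcm5), -1.19 to 0.56 (Mcm6), -1.29 to 1.43 (Mcm7) and -0.55 to 0.92 (Pcna). In Skp1acont against wt they ran from -0.54 to 0.25 (Cdt1), -1.06 to 0.14 (Mcm3), -1.28 to 0.64 (Mcm5) and -2.56 to 0.30 (Mcm7), with PI from -0.184 to 0.023 (Cdt1) and -0.0605 to 0.31 (Gmnn), and between the stages from -0.16 to 0.20 (Gmnn).

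Other changes of sign were of genes not called. In Skp1acont against wt, Cdt1 was at 0.0424 with the stricter filter, 0.0719 with size factors, 0.0751 with DESeq2, 0.15 in the fit of the groups compared and 0.55 with library totals, and Mcm5 at 0.0526, 0.0727, 0.0729, 0.13 and 0.57. Library totals put Mcm3 at 0.28 and Mcm7 at 0.044 there, Mcm3 at 0.13 and Mcm7 at 0.43 in the PI pair, and Cdt1 at 0.0172 in Skp1aKO against wt. In the PI pair Cdt1 was at -0.57 with the GC correction, -0.0481 with no filter and -0.081 with the replicate block. In Skp1aKO against Skp1acont, Cdc6 was at -0.0299 with no filter, and Pcna at -0.0048 in the fit of the groups compared, -0.0244 with the GC correction and -0.0518 with no filter. Gmnn between the stages was at -0.0193 in the fit of all 6 groups.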
